A study of Mus musculus with 12 samples.

Results

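Lungs of offspring and of dams were compared after a gestation in filtered air. The members are 6 of the 12 arrays of the series, chosen by title: 3 of offspring air and 3 of dam air, 1 array per sample. All 12 arrays were of lung total RNA from mice labelled female, of a strain written B6C6F1. The dams were mature pregnant mice and the offspring were labelled prenatal. The other 6 arrays came from dams and offspring exposed to mainstream smoke of 3R4F research cigarettes, diluted 1 part in 50 with filtered air. Per the labels exposure ran for 4 h per day, 5 days per week, over the 18 days of gestation, and lungs were taken at its end. The samples of a group are labelled biological replicates. Litter, the pairing of offspring with dams and any pooling of offspring lungs are not stated in the labels, so p-values measure only the spread between these samples.

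As background, the lung of a mouse around birth consists of thin-walled sacs, and its alveoli form mostly after birth. Surfactant, which keeps these air spaces open, is made by alveolar type 2 cells and rises before birth. The adult lung holds finished alveoli with their capillary bed, ciliated and secretory airway cells and resident immune cells. Proliferation and matrix deposition are high in the growing lung and low in the adult organ. A comparison of offspring with dams under clean air therefore addresses the difference between these stages, in mothers at the end of pregnancy.

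The table gives probe identifiers and no gene names, and 0 of them matched the gene table used here. No gene is named, the lung identity of the samples could not be checked against markers, and no list of surfactant, matrix, cell cycle or immune genes could be read. Per the labels' protocols Cy5 carried the lung RNA and Cy3 a universal mouse reference, but the channel of the deposited intensities was not given in the sources used here. Differences below are differences in lung RNA only if they hold the Cy5 channel.

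The air arrays were of similar brightness. The 75th percentile of probe intensity was 840.4, 868.3 and 1164 in offspring air replicates 1, 2 and 3 and 925, 945.1 and 905.6 in dam air replicates 1, 2 and 3. Of the probes, 65.8% to 67.3% lay above the common floor defined below on the offspring air arrays and 66.4% to 66.5% on the dam air arrays. Each array was divided by its own 75th percentile, and levels are given below as percent of it. Values under 1.16% of it, the background of the array where background was highest, were set to that floor. Differences between groups are on the log2 scale of these floored values, which understates changes of dim probes, and 28185 probes above the floor on at least 3 of the 12 arrays were tested.

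The intensity profiles of the air arrays were about as alike between offspring and dams as among offspring. Any 2 dam air arrays differed, for the median probe, by 0.09 to 0.19 on the log2 scale, and an offspring air array differed from a dam air array by 0.16 to 0.26. The offspring air arrays differed among themselves by 0.20 to 0.28, as much as they differed from the dams. Correlations across probes told the same: 0.992 to 0.997 among dam air arrays, 0.988 to 0.993 between the groups and 0.986 to 0.992 among offspring air arrays. The closest pair across the groups was offspring air replicate 1 with dam air replicate 2, with a median difference of 0.16 and a correlation of 0.993. That offspring array was nearer to this dam array than to either of its own group, from which it differed by 0.28 (replicate 2) and 0.20 (replicate 3). Mean distance between the groups exceeded that within them by 0.03 on the log2 scale, with an exact permutation p of 0.2 over the 6 arrays (one-sided, n = 3 each; adjusted 0.514 over 12 array measures). With 3 arrays against 3, none of the exact tests of array measures can go below 0.1. This includes the one-sided test, whose measure stays the same when the groups are swapped.

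**Figure D1:**
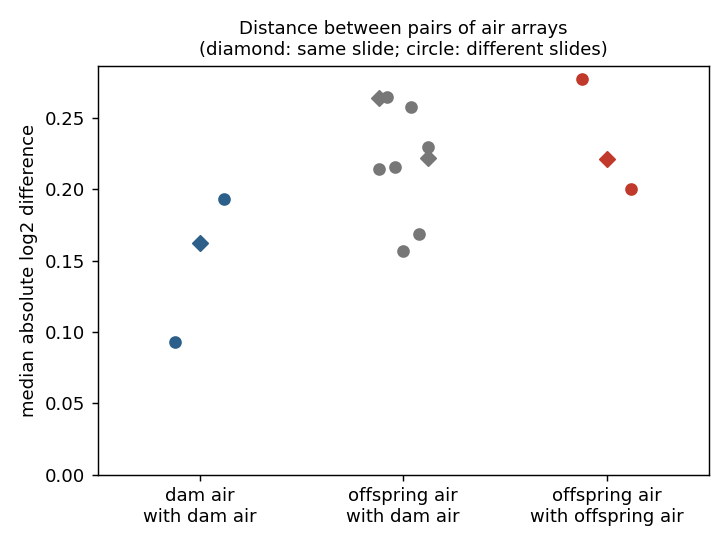
Each point is a pair of air arrays, with the median absolute log2 difference over 28185 probes on the vertical axis, by whether the pair is of dam air, of both groups or of offspring air. Pairs across the groups (0.16 to 0.26) overlap the dam pairs (0.09 to 0.19) at the lower end and the offspring pairs (0.20 to 0.28) at the upper end.

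The spread between offspring air arrays was wider than between dam air arrays. The median SD of a probe was 0.204 on the log2 scale in offspring air and 0.128 in dam air, and it was higher in offspring air at 68.6% of the probes. In offspring air 2498 probes, or 8.86%, spanned more than 2-fold among the 3 arrays, against 853, or 3.03%, in dam air. Replicate 1 was the array farthest from the group's middle value at 64.0% of these offspring probes, and it was low at 1218 and high at 381 of them. In dam air the array farthest out was replicate 2, at 58.7% of its 853 probes. More than 8-fold spans were seen at 53 probes in offspring air and at 17 in dam air.

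On the line from dam air to offspring smoke, offspring air replicates 1 and 3 lay close to the dams. They stood at 1.94% and 1.66% of the way to the mean of the offspring smoke arrays, a line set without any offspring air array. Replicate 2 stood at 27.2% of the way. Dam air arrays, each set against the other two, stood at 3.07%, 13.2% and 1.52%, and dam smoke replicates 1, 2 and 3 at 3.81%, 3.38% and 38.2%. Offspring air replicate 2 was thus displaced towards offspring smoke, as dam smoke replicate 3 was. The ratio of the spike-in controls to the 75th percentile was 3.23 and 2.76 on these arrays. It was 1.52 to 2.30 on the other air and dam arrays and 3.42 to 4.22 in offspring smoke. Whether the position on the line follows this ratio was not tested.

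Differences between the group means were small. The median absolute log2 difference was 0.16 over all probes, and 9 in 10 probes differed by at most 0.49. With the probes cut by mean level into 4 sets of equal size, it was 0.23, 0.19, 0.14 and 0.11 from the dimmest to the brightest set. More than 2-fold differences were found at 330 probes, 107 higher and 223 lower in offspring, or 1.17% of those tested. From the dimmest to the brightest of these sets, 81, 87, 41 and 14 of the 223 lower probes and 70, 25, 10 and 2 of the 107 higher probes were found. In the smoke groups the corresponding median difference between offspring and dams was 0.39, and 8.25% of probes differed by more than 2-fold.

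The largest differences were rarely the called ones. At 35 probes the group means differed by more than 4-fold, 8 higher and 27 lower in offspring. At 24 of these 35 the arrays of 1 group themselves spanned more than 8-fold, in offspring air at 20 and in dam air at 4. The groups did not overlap at 17 of the 35, and 3 passed the test. Over all probes tested these shares were smaller, at 17.2% and 0.153%.

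**Figure D2:**
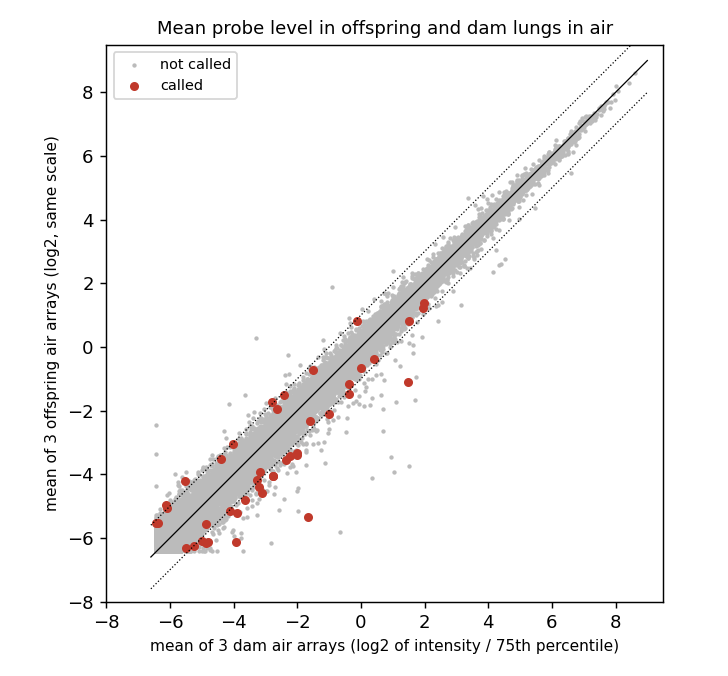
Each point is 1 of 28185 probes, with its mean over the dam air arrays on the horizontal and over the offspring air arrays on the vertical axis, both as log2 of intensity over the array's 75th percentile. The solid line marks equal means and the dotted lines 2-fold differences, and the 43 called probes (red) include few of the points farthest from the line.

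In limma's fit over all 12 arrays, 43 of 28185 probes (0.153%) passed a Benjamini-Hochberg adjusted p under 0.05, 12 higher (0.0426%) and 31 lower (0.11%) in offspring. Before adjustment 4524 probes, 16.1%, had p under 0.05. The groups did not overlap at 4856 probes, or 17.2% of those tested, with 2564 higher (9.1%) and 2292 lower (8.13%) in offspring. The 12 higher probes differed by 0.69 to 1.33 on the log2 scale and the 31 lower ones by -3.66 to -0.62. Levels of the called probes ran from 1.58% to 321% of the 75th percentile, with a median of 8.84%, and 32 of the 43 were above the floor on all arrays. The call with the smallest adjusted p, A_52_P1132297 (0.0092 in limma), was above the floor on 3 arrays only, those of offspring air. It passed the filter only through the group where it was high. Its other arrays were set to the floor, which understates its spread, so its p-value is no support for a difference. The share of calls that was higher in offspring, 27.9%, became 5.56% when arrays were not scaled and 0% with scaling to the spike-in controls, which moved the median difference of all probes from 0.02 to -0.39. The fit of the 6 air arrays alone called 1 probe, which was not among the 43 (adjusted p of these 0.235 to 0.291), and slide as a fixed block left 0 calls and 3181 probes with an unadjusted p under 0.05 in limma.

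By rule the probes described are the called ones with the largest differences that were above the floor on all 6 air arrays, 2 lower and 2 higher in offspring. The air arrays used for that choice also enter the test of the difference between exposures. For these probes the p-values of that test are therefore a description. Probe A_51_P428708 read 39.0%, 87.3% and 29.4% of the 75th percentile in offspring air replicates 1, 2 and 3, and 275%, 287% and 273% in dam air. Every dam array was thus more than 3 times as bright as any offspring array, and the dams agreed closely while offspring air replicate 2 stood above its group. The means were 51.9 ± 31.0% and 278 ± 7.63% (SD, n = 3 each). The probe was 5.99-fold lower in offspring (log2 difference -2.58, standard error 0.30, limma adjusted p 0.0155). In smoke the probe read 115%, 134% and 121% in offspring and 238%, 248% and 194% in dams. Offspring were again below every dam, but by -0.88 on the log2 scale (adjusted p 0.0350 in limma), and the difference between exposures, -1.71, had an adjusted p of 0.0202.

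Probe A_52_P378959 was lower in offspring in air and was not called in smoke. It read 5.52%, 3.80% and 3.51% in offspring air against 13.1%, 9.04% and 12.8% in dam air, where the groups did not overlap. Offspring were lower by more than the spread (log2 difference -1.46, standard error 0.20, limma adjusted p 0.0225). In smoke it read 10.6%, 11.8% and 10.6% in offspring and 7.11%, 9.47% and 9.87% in dams, a difference of 0.33 (adjusted p 0.197). Offspring smoke arrays were therefore at the level of dam air, and the stage difference differed between air and smoke by -1.79 (limma adjusted p 0.00571).

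Probe A_52_P118638 was higher in offspring by about the same amount under both exposures. It read 25.8%, 33.3% and 33.0% in offspring air against 14.5%, 15.5% and 13.7% in dam air. The level was 2.10-fold higher in offspring (log2 difference 1.07, standard error 0.13, limma adjusted p 0.0181). The smoke arrays, which enter the air comparison only through the shared spread, read 39.7%, 34.1% and 38.9% in offspring and 18.6%, 14.6% and 17.8% in dams. On this scale all 6 offspring arrays were thus above all 6 dam arrays, and the smoke difference was 1.15 (adjusted p 2.10e-04 in limma). The stage differences of air and smoke were -0.08 apart, with an adjusted p of 0.770. The 75th percentile was 490.9 and 549.4 on offspring smoke replicates 2 and 3 and 839.2 to 1101 on the dam smoke arrays. The smoke comparison therefore depends on this scaling. In air the difference was 1.10 without scaling (limma adjusted p 0.22) and 0.64 with scaling to the spike-ins (limma adjusted p 0.393).

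Probe A_51_P259638 read 4.41%, 6.74% and 5.31% in offspring air against 2.39%, 2.19% and 1.90% in dam air. It was 2.51-fold higher in offspring (log2 difference 1.33, standard error 0.16, limma adjusted p 0.0181). Its 6 smoke arrays all lay at the dam air level, at 2.76%, 2.44% and 2.02% in offspring and 2.14%, 2.39% and 2.26% in dams. The dam air and smoke levels were close above the floor of 1.16%. The probe dropped out where 4 times the floor was required on 3 arrays. The offspring air arrays were the only ones raised among the 12. The difference between exposures was 1.25 (limma adjusted p 0.00774), a description for a probe chosen on its air arrays.

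**Figure D3:**
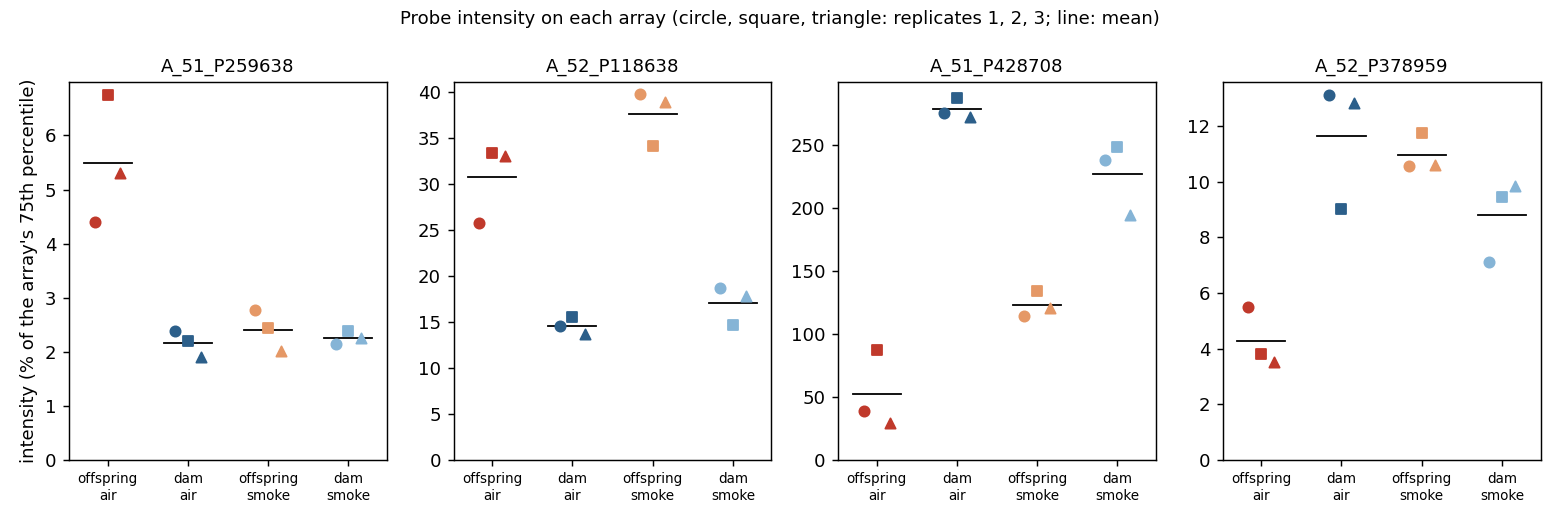
Intensity of the 4 probes on each of the 12 arrays, as percent of the array's 75th percentile, with the mean of each group as a line and replicates 1, 2 and 3 as circle, square and triangle. In every panel the offspring air and dam air points are separate, and the smoke arrays repeat that separation at A_52_P118638 and, with a smaller gap, at A_51_P428708.

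The smoke arrays gave the same stage contrast in other samples. There 46.1% of all probes were called, and 29 of the 43 probes had the same direction as in air. These shares hold for scaling to the 75th percentile: without scaling 101 probes were called higher and 10359 lower in offspring under smoke, with scaling to the spike-ins 31 and 14601, and with the log2 spike-in ratio as covariate 543 and 1255. Of the 31 lower probes 21 were lower in offspring under smoke, where 45.6% of all probes were, and 17 were called lower, where 21.1% of all probes were. Of the 12 higher probes 8 were higher in offspring under smoke, where 54.0% of all were, and 5 were called higher, where 25.0% of all were. Another 4, all lower in air, were called in the opposite direction in smoke. The stage difference itself differed between exposures at 25 of the 43 probes and at 23.7% of all probes, a test that uses the same air arrays as the call. The 2 contrasts share no array, but they share slides and the fitted spread, and probes with a small spread are called more readily in both. The mean of the 3 offspring smoke arrays was nearer to the offspring air mean at 22 of the 43 probes, 51.2%, where 50.6% of all probes were, and nearer to the dam air mean at 21. The dam smoke mean was nearer to dam air at 39 of the 43, and nearer to offspring air at 4, or 9.3%, against 35.0% of all probes. The 43 probes were chosen for a large gap between these air means, which a smoke mean crosses less easily. Their shares are therefore a description.

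**Figure D4:**
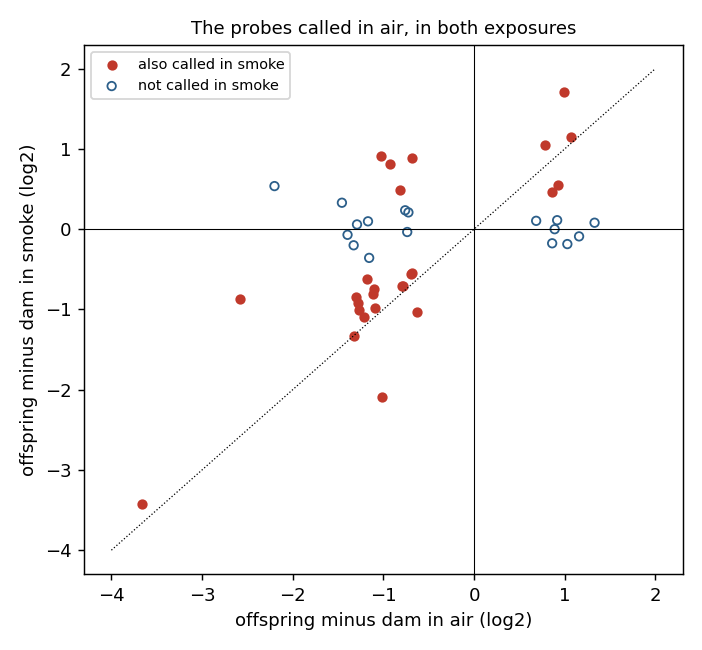
For the 43 probes called in air, the log2 difference of offspring minus dam in air (horizontal) and in smoke (vertical), with those also called in smoke filled and the dotted line marking equal differences. The filled points include 17 probes lower and 5 higher in both exposures, and 4 that were lower in air and higher in smoke.

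The count of called probes depended on single arrays. Without offspring air replicate 1 limma called 1233 probes, 55.1% of them higher in offspring, and all 43 were among them. On those 1233 probes the median shift away from the dam air mean was 0.81 and 0.85 in replicates 2 and 3 and 0.12 in replicate 1, and replicate 1 lay on the other side of that mean at 440. These probes were selected on replicates 2 and 3, which share a slide with each other and with dam air replicate 3, while replicate 1 was on another slide. Without dam air replicate 2 limma called 476 probes, again with all 43. Without dam air replicate 1 or 3 it called 0, with 2563 and 3063 probes at an unadjusted p under 0.05, and without offspring air replicate 3 it called 16. Without offspring air replicate 2, the array displaced towards offspring smoke, it called 56, of which 25 were among the 43. Smoke arrays enter only through the shared spread: the count was 73 and 28 without dam smoke replicates 1 and 2 and 18, 24 and 18 without offspring smoke replicates 1, 2 and 3. The direction of the 43 probes is no sign of stability in these fits, since the air groups did not overlap at any of them.

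Control probes differed between arrays of the same group. None of the 12 array measures passed an exact permutation test between the groups, but with 3 arrays against 3 its p cannot go below 0.1. The arrays carry control pairs whose names end in _3 and _5, and the sources used here do not say what they detect. The mean log2 ratio of _3 to _5, offspring air minus dam air, was 0.97 for RR, 0.25 for AB and 0.08 for PC. It was 0.004 for TR and -0.29 for GD. For the pair RR the ratio of _3 to _5 was 0.961, 0.713 and 0.941 on the offspring air arrays, replicates 1 to 3, and 0.304, 0.931 and 0.304 on those of dam air. Dam air replicate 2 thus lay among the offspring arrays while the other dams lay together below every offspring array, and the exact permutation p was 0.2 (two-sided, n = 3 each, adjusted 0.514). The signal of the _3 probe over the 75th percentile was 133, 95.1 and 90.3 in offspring air against 27.3, 112.5 and 30.6 in dam air. With its log2 value as a covariate, an alternative added after the data had been seen, limma called 0 probes and gave 2640 an unadjusted p under 0.05, and the adjusted p of the 43 ran from 0.0964 to 0.214. The log2 differences in that fit were -2.59 for A_51_P428708, -1.20 for A_52_P378959, 0.98 for A_52_P118638 and 1.42 for A_51_P259638. Apart from dam air replicate 2 the covariate follows the air groups, so that fit cannot fully separate it from them. The ratio of 6 spike-in controls to the 75th percentile was 2.30, 3.23 and 1.60 in offspring air against 1.59, 1.65 and 1.86 in dam air, an exact permutation p of 0.3 (two-sided, n = 3 each). With its log2 value as a covariate limma called 91 probes, 34 of them among the 43. What part either measure has in the differences was not tested beyond these fits.

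**Figure D5:**
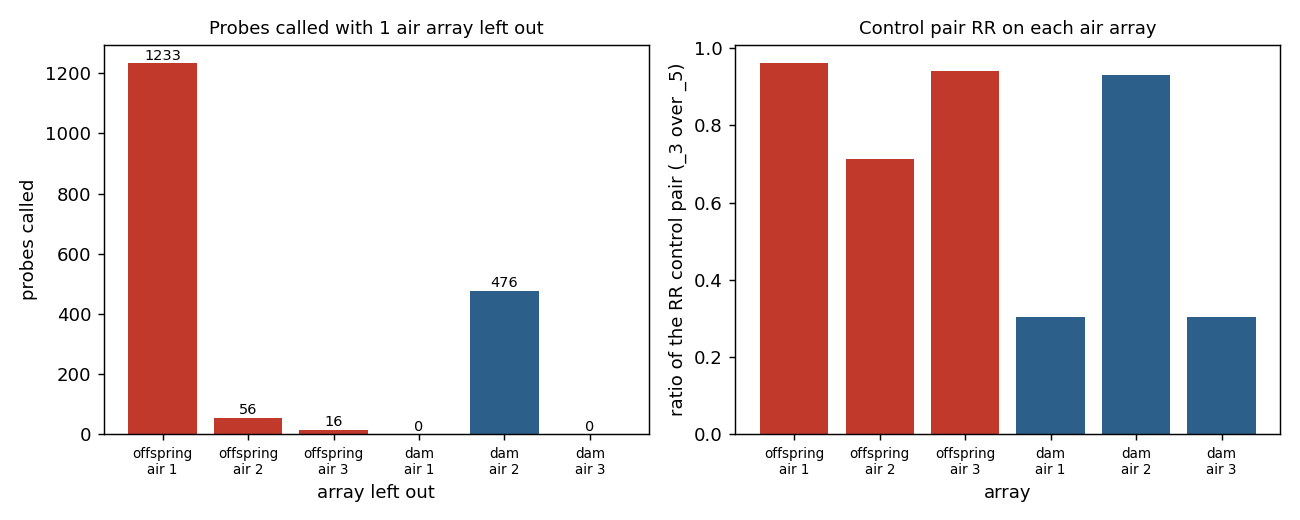
Left, the number of probes called by limma when the named air array is left out, against 43 with all arrays. Right, the ratio of the RR control pair on each air array, where dam air replicate 2 (0.931) lies with the offspring arrays (0.713 to 0.961) and the other dams are at 0.304.

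Slides divide the air arrays unevenly. Slide 3 held offspring air replicates 2 and 3 and dam air replicate 3, slide 1 held offspring air replicate 1, and slide 2 held dam air replicates 1 and 2. The difference of the groups within slide 3 and that between the remaining 3 arrays, which share no array, had a Pearson correlation of 0.214 and a Spearman correlation of 0.241 over 28185 probes, and their sign matched at 57.4%. Probes are not independent replicates, and in the remaining arrays slide and group cannot be told apart. Within slide 3 the log2 difference was -2.43 for A_51_P428708, -1.82 for A_52_P378959, 1.28 for A_52_P118638 and 1.66 for A_51_P259638. Between the remaining arrays it was -2.85, -0.98, 0.78 and 0.95 in the same order. The direction could not differ, since the probes were chosen with air groups that do not overlap.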

How the data were processed

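The deposited table held linear intensity values for 41267 probes on 12 arrays, 41174 with identifiers starting A_51_P or A_52_P and 93 controls. The authors' background subtraction, normalization and channel are not given in the sources used here. Values were scaled to each array's 75th percentile over these 41174 probes, floored at the highest scaled 95th percentile of 50 controls without a target, and converted to log2, which left 28185 probes tested. Probes were tested with limma 3.58.1 in R 4.3.3 (lmFit, eBayes, 1 mean per group over 12 arrays, 8 residual degrees of freedom, two-sided), with a threshold of 0.05 on the Benjamini-Hochberg adjusted p. Array measures were compared by exact permutation with scipy 1.17.1 in Python 3.11.15. The fit was tested on simulated data. The number of arrays limits the precision. Alternatives covered scaling, floor, slide, replicate number, spread, array weights and each array left out. Named probes were the called ones with the largest log2 differences above the floor on all 6 air arrays, 2 in each direction. The comparison, lists and rules were chosen with earlier results of these data known, and the gene and marker lists were not used because no probe has a gene name.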

Additional observations from a re-analysis of the deposited data

Results flagged for a closer look

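The difference between offspring and dams was not the same in air as in smoke. A test of the difference between both stage effects in limma passed an adjusted p under 0.05 at 6687 of 28185 probes, 23.7%. Of the 43 probes called in air 25 passed it, 8 of the 12 higher and 17 of the 31 lower ones. These probes were chosen for a large difference on the air arrays, which enter this test too, so their share is a description. Leaving out 1 array gave 3074 to 8920 probes, and slide as a fixed block left 42. With scaling to the spike-ins 10 passed. Without scaling 5474 passed, of which 99.1% had a higher difference in air, against 53.9% with the 75th percentile.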

How the results depend on the processing

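All 43 called probes kept their direction in every alternative in which they were measured, which the lack of overlap between their air groups fixes for the fits that only leave out arrays or change the spread. The count moved widely. With limma it was 18 without scaling, 150 with scaling to the spike-ins, 115 among probes above the floor on all 12 arrays, 155 among probes above 4 times the floor, 145 with a trended robust spread, 2844 with array weights (whose estimation stopped before it converged), 91 with the log2 spike-in ratio as covariate, and 76 without both offspring air replicate 2 and dam smoke replicate 3. It was 1 in the air groups alone and 1 with the plain t-test of equal variance. It was 0 without floor and filter (4578 probes with an unadjusted p under 0.05), 0 with slide as a fixed block (3181), 0 with the control probe RR_3 as a covariate (2640) and 0 in the air groups alone with dam air replicate 2 left out (4254). With 1 array left out it ran from 0 to 1233. Median and quantile scaling gave 58 and 64, and slide as a random block 43. The replicate number as a block left 0 calls (3953 with an unadjusted p under 0.05). Same-numbered offspring and dam air arrays deviated from their group means with correlations of -0.0728, -0.123 and 0.0862. Pairs with different numbers ran from -0.137 to 0.165. With 3 arrays per group these values cannot tell whether same-numbered samples were paired, which the labels do not state. Offspring against dams in smoke ran from 9456 to 13972 calls and the difference between exposures from 3074 to 8920 with 1 array left out, and the latter was 42 with slide as a fixed block. The log2 spike-in ratio ran from 0.18 to 0.68. The named probes kept their call in 21 of 30 (A_51_P428708), 15 of 30 (A_52_P378959), 18 of 30 (A_52_P118638) and 17 of 29 (A_51_P259638) alternatives with a test, and their direction in all, with log2 differences of -3.04 to -2.25, -1.88 to -1.20, 0.64 to 1.19 and 0.90 to 1.48. A change of dim probes near the floor is limited by background.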
